A study of Mus musculus with 2 samples.

Results

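Retinal endothelial cells, the cells that line the blood vessels of the retina, made up 42 cells of the control library and 43 cells of the knockout library. Together they were 85 of 6485 cells with at least 2000 unique molecular identifiers (UMIs, 1 per captured RNA molecule), and of 13919 barcodes in all. Cells were chosen by measured levels: a cell was taken as endothelial if at least 4 of the 8 genes Cldn5, Pecam1, Cdh5, Flt1, Kdr, Tek, Egfl7 and Slco1a4 were detected with at least 6 UMIs summed. It also had to hold at most 1 UMI of the leukocyte receptors Csf1r and Csf3r, and under 0.1% of its UMIs in the Müller glia genes Rlbp1, Glul, Slc1a3, Dkk3 and Crym. Because the members were selected on the levels of these genes, those levels are given below as a description.

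Both libraries came from mouse retinas that had received lipopolysaccharide (LPS, a bacterial cell wall component that drives inflammation) into the vitreous at 0.5 µg per eye. The control library was Atg5fl/fl, with a floxed allele of the autophagy gene Atg5 and no Cre. The knockout library was GLAST-CreER; Atg5fl/fl and had also received 4-hydroxy-tamoxifen, which the control had not, so Cre, drug and deletion cannot be told apart. GLAST-CreER is active in Müller glia. Whether it was also active in any of the members was not measured. Each group was 1 library of 6 pooled retinas, and no uninjected retina was analysed here, so no difference below has a replicate check and none was tested. Intervals are 95% and cover counting error only.

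Retinal endothelial cells form the inner blood-retina barrier: tight junctions seal the gaps between them, and dedicated transporters carry glucose, amino acids, hormones and lipids across. Pericytes wrap the capillaries and share their basement membrane. During inflammation, endothelial cells display selectins and integrin ligands that slow and arrest passing leukocytes, and they release chemokines and colony-stimulating factors.

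The members were 1.42% (1.02 to 1.91) of the 2967 deep control cells and 1.22% (0.886 to 1.64) of the 3518 deep knockout cells, an overlap of intervals. Of all barcodes kept, shallow ones included, they were 0.508% (0.366 to 0.686) in control and 0.922% (0.668 to 1.24) in knockout, which is the opposite order. They were deep cells: the median was 29851.5 UMIs per control member (range 2596 to 124841) and 39706 per knockout member (3331 to 117636). Over all deep cells the medians were 7499 and 9773 UMIs. Summed over members there were 1498035 control and 1778958 knockout UMIs, so that 3 counts, the limit that a count of 0 allows, equalled 2.00 and 1.69 CPM (a gene's share of the summed UMIs, times 1000000). The 2 libraries shared 15 cell barcodes, and none of them was shared between members.

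All 8 genes of the rule were detected in 22 control and 23 knockout members, and 1 cell of each library sat at the lower bound of 4 genes, with 10 and 22 UMIs of these genes. Just outside lay 4 control cells and 1 knockout cell with 3 genes and at least 6 UMIs, and 2 knockout cells with enough genes but under 6 UMIs. The leukocyte receptors kept out 4 and 5 further cells, and the Müller share 8 and 8. Flt1, a VEGF receptor, stood at 2724 CPM in control and 2524 in knockout members, and Cldn5, the main tight junction claudin, at 1711 and 1316. The cadherin Cdh5 had 701 and 770 CPM. Slco1a4, an organic anion transporter, had 228 and 114.

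Genes outside the rule were also far higher in members than in other deep cells. Among genes with at least 100 UMIs in members, the largest folds over all other deep cells were those of Bcl6b at 243-fold, Ccl11 at 223-fold and Tbx1 at 196-fold. Bcl6b and Tbx1 were detected in 62 members each, and Ccl11 in 19. Many members also carried pericyte genes, as given below, so a high fold alone does not mark a gene as endothelial. Apln, the apelin peptide of sprouting vessels, was 174-fold higher, the transcription factor Foxf2 170-fold, the receptor Robo4 163-fold and the Notch ligand Dll4 153-fold. Markers of lymphatic vessels were low: Prox1 had 6.01 and 6.18 CPM, Lyve1 2.67 and 3.93, and Ccl21a was at 0. Flt4, which blood vessel endothelium also uses, made up most of that list with 97.5 and 107 CPM.

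Many members also carried genes of pericytes, which summed to 3113 CPM over control and 2359 CPM over knockout members. At least 3 of the 8 pericyte genes Rgs5, Pdgfrb, Kcnj8, Abcc9, Notch3, Vtn, Ndufa4l2 and Higd1b were detected in 22 of 42 control members (52.4%, exact binomial interval 36.4 to 68.0) and in 26 of 43 knockout members (60.5%, 44.4 to 75.0). All 8 were present in 14 control and 18 knockout members, while 10 and 7 members had none, and 8 and 3 had 2 to 4 genes. The 8 genes summed to 3741 and 2894 CPM in members with 3 to 8 of them, against 3823 and 3108 CPM in 6 control and 3 knockout pericyte-marker cells. These were cells outside the members with at least 3 of the genes, at least 4 UMIs of them and the same limits on leukocyte and Müller genes. The 6 control cells also held amacrine cell genes at 1365 CPM (Tfap2b 724 and Pax6 558 CPM). The 3 knockout cells held Nefl at 457.5, Pax6 at 269 and Apoe at 875 CPM, and Vtn alone gave 1884 CPM of their pericyte sum. Neither group is thus a clean pericyte reference. Other deep cells carried pericyte genes at 195 and 135 CPM.

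Endothelial transcription factors, which the rule did not use, stood at similar levels in both kinds of member. With 3 to 8 pericyte genes, 1 was at least 2-fold higher and 0 lower of 25 measured in control and of 27 in knockout, beside 10.5% and 11.7% of all genes that were higher. Mecom had 2062 CPM with and 2017 CPM without pericyte genes in control, and 2058 and 1897 CPM in knockout. The 8 genes of the rule, which every member had to carry, summed to 7646 and 7933 CPM in control and to 7502 and 6696 CPM in knockout. Members with pericyte genes were deeper, with medians of 45779 against 10179.5 UMIs in control and 51897.5 against 15310 in knockout. Pdgfrb, the receptor that recruits pericytes, had 247 and 243 CPM in members with 3 to 8 pericyte genes and 0 UMIs in the others. It is 1 of the 8 genes that made the division, so this contrast follows in part from the choice. The smooth muscle genes Acta2 and Tagln were at 10.7 and 6.57 CPM in control members with 3 to 8 pericyte genes, against 2208 and 1888 CPM in the 6 control pericyte-marker cells. In the knockout library they were at 0 and 4.90 CPM in such members and at 0 and 26.9 CPM in the 3 pericyte-marker cells. Whether such a barcode held 1 cell or a vessel fragment was not tested, and no doublet caller was run.

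**Figure D1:**
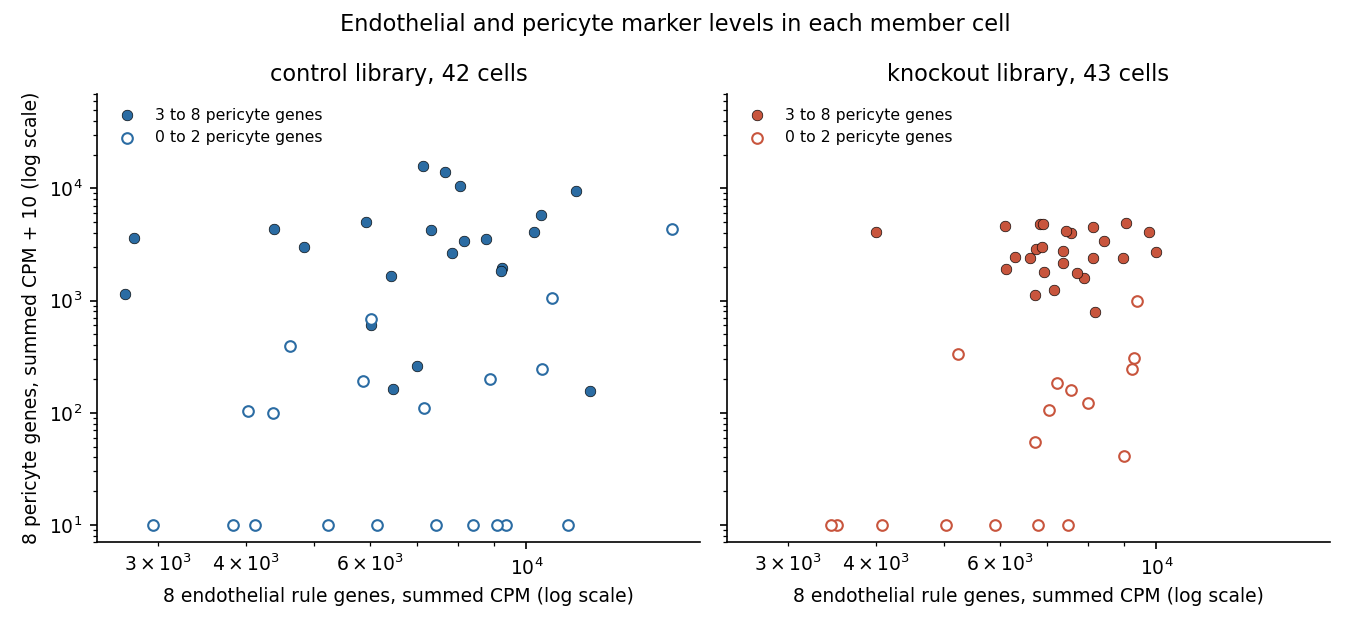
Each point is 1 member barcode of the control or knockout library, with its summed CPM over the 8 genes of the rule on the horizontal axis and over 8 pericyte genes, plus 10, on the vertical axis (log scales). Filled points have 3 to 8 pericyte genes and open points 0 to 2. Members with 3 to 8 pericyte genes lie between 147 and 15957 CPM, and those with 0 to 2 genes lie mostly near the bottom, with a highest value of 4304 CPM.

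Genes that mark other cell types differed between the libraries. The 8 rod genes summed to 461 CPM in control and 66.3 CPM in knockout members, and the highest control cell reached 17419 CPM. Haemoglobin and other erythroid genes summed to 1342 and 360 CPM, and 1342 of the 1348 control Hbb-bs UMIs lay in 1 cell. Müller glia genes summed to 338 and 279 CPM, most of it Glul (260 and 220 CPM, in 37 and 39 members). Rlbp1 had 1.34 and 2.25 CPM, and Kcnj10 was at 0 in both libraries. Neutrophil genes summed to 65.4 and 42.7 CPM. The rule itself limited 5 of the Müller genes and the receptors Csf3r and Csf1r, so these sums were bounded by the choice of cells. Of the 8 monocyte and macrophage genes, C1qa, C1qb, C1qc and Ms4a7 were at 0 in both libraries, and the list summed to 13.3 and 19.7 CPM. The ganglion cell list stood at 640 and 551 CPM, nearly all of it Rbpms (635 and 543 CPM, in 36 and 41 members). Whether the members themselves expressed Glul and Rbpms was not tested. The part of these RNAs in the differences below was not tested, except where a value is given.

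Inflammatory messengers were abundant in the members. Csf3, the granulocyte colony-stimulating factor that mobilises neutrophils, reached 872 CPM in control and 1193 CPM in knockout members. Neutrophil-marker cells had 429 and 564 CPM of Csf3, monocyte and macrophage-marker cells 92.1 and 283, neuron-marker cells 34.2 and 65.4, and Müller-marker cells under 4. Thus members had the highest Csf3 level of the 7 cell groups in both libraries. The gene lies at chr11:98701263-98703629 of mm10 on the plus strand.

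Csf3 was uneven between cells. It was detected in 27 of 42 control members, with a median of 129 and a highest value of 9758 CPM. In the knockout library it was detected in 31 of 43, with a median of 427 and a highest value of 10004 CPM. The largest single cell held 26.5% and 29.3% of its UMIs.

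Other cytokines were shared with other cells to different degrees. Il6 had 163 and 351 CPM in members, against 85.1 and 98.6 CPM in monocyte and macrophage-marker cells and 2.07 and 3.40 CPM in Müller-marker cells. The few pericyte-marker cells, which also held RNA of other cell types, had 665 and 256 CPM of Il6. The neutrophil chemokine Cxcl1 had 1289 and 1182 CPM in members, against 253 and 456 CPM in Müller-marker cells and 192 and 185 CPM in neuron-marker cells. Its relative Cxcl2 was highest in neutrophil-marker cells, with 388 and 577 CPM in members against 16006 and 17888 CPM in neutrophil-marker cells. Ccl2, which attracts monocytes, was at 1044 and 1098 CPM in members and at 1118 and 989 CPM in Müller-marker cells, a difference that has opposite signs in the 2 libraries.

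Several genes listed for the acute response of brain and retinal endothelium were high as well. Without an uninjected retina, a rise after LPS cannot be told from a steady level. Ctla2a, an inhibitor of cysteine proteases, had 6195 and 6568 CPM in members and at most 748 CPM in any other group. The metalloprotease Adamts9 had 1630 and 1803 CPM, against at most 255 CPM elsewhere. Lcn2, an iron-sequestering lipocalin, was at 3838 and 4712 CPM in members. It was higher per UMI in Müller-marker cells (20492 and 16737 CPM) and in neutrophil-marker cells (12015 and 12743 CPM).

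Tlr4, the LPS receptor, was low in members at 34.7 and 45.0 CPM, above Müller-marker cells at 4.76 and 6.93 CPM and below neutrophil-marker cells at 150 and 223 CPM. Its co-receptor Cd14 was at 60.1 CPM in control and 6.18 CPM in knockout members, and 41 of the 90 control UMIs lay in 1 cell. Ly96, which binds LPS beside Tlr4, had 9.35 and 25.3 CPM.

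**Figure D2:**
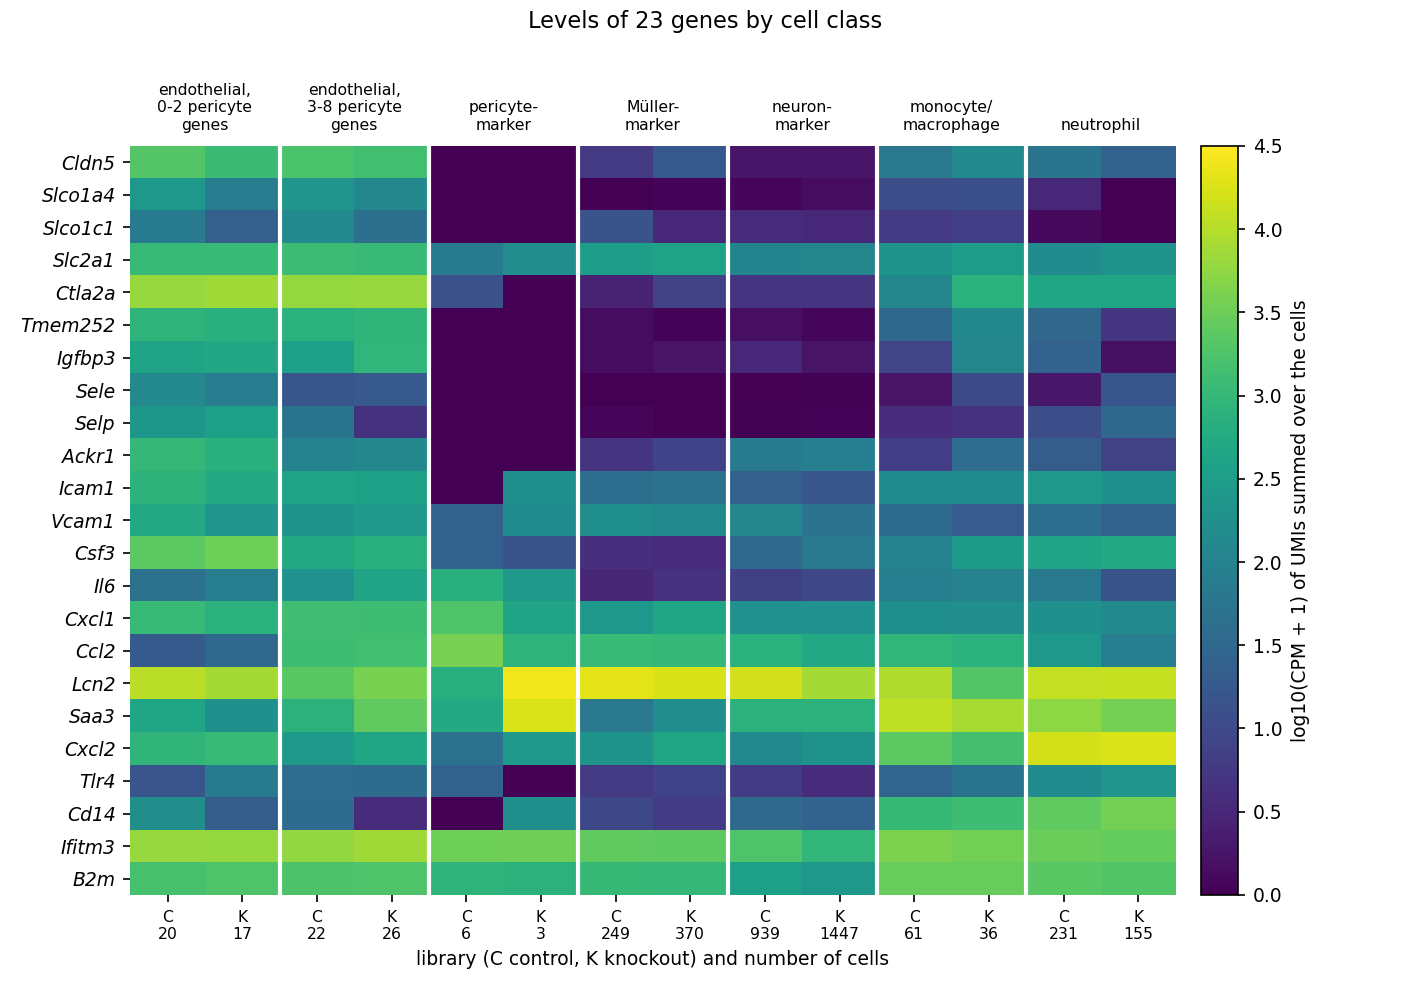
Levels of 23 genes as log10 of CPM plus 1, by colour, in endothelial cells with 0 to 2 or 3 to 8 pericyte genes and in the other marker-defined cell groups of each library. Csf3, Selp, Sele, Ctla2a and Slc2a1 have their highest level in endothelial columns, and Cxcl2, Cd14 and Tlr4 in neutrophil-marker cells.

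The main leukocyte adhesion genes had their highest levels in members. Selp, P-selectin, which captures rolling leukocytes, had 88.8 CPM in control and 74.2 CPM in knockout members and at most 32.2 CPM in another group. Sele, E-selectin, had 36.0 and 29.2 CPM against at most 14.9. The integrin ligand Icam1 had 465 and 401 CPM, against 251 and 179 CPM in neutrophil-marker cells and 41.0 and 49.0 CPM in Müller-marker cells. Vcam1, which arrests monocytes and lymphocytes, had 254 and 248 CPM, with 176 and 143 CPM in Müller-marker cells.

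The selectins were carried by few cells. Selp was detected in 4 control and 7 knockout members, and 1 cell of each library held 62 of 133 and 73 of 132 UMIs. Sele was detected in 12 and 14 members. Icam1 was broader, in 32 of 42 and 41 of 43 members, with medians of 210 and 371 CPM per cell. Of 21 adhesion genes with at least 20 UMIs over both libraries, 1 was at least 2-fold higher and 0 at least 2-fold lower in knockout members. That gene was Alcam, at 8.01 and 29.2 CPM, with 20 of its 52 knockout UMIs in 1 cell. Over all 9891 genes measured, 1.69% were at least 2-fold higher and 4.29% at least 2-fold lower, so these counts are near or under the background.

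The promoters of Selp and Sele are shown because these genes, which lie close together on chromosome 1, were among the 3 adhesion and chemokine genes with promoters in the table and the highest folds in members. Selp was 64.9-fold and Sele 64.6-fold higher than in other deep cells. Each line runs 5′ to 3′ on the plus strand from 250 bases before the start of the gene to 50 bases after its start, from RefSeq on GRCm38. Capitals mark letters that match GGNNTTTCC, a motif of the kind NF-kB factors bind, or TTCNNTTTC, a motif of interferon response elements, searched on both strands. The windows are chr1:164115014-164115313 for Selp and chr1:164047984-164048283 for Sele.
Selp: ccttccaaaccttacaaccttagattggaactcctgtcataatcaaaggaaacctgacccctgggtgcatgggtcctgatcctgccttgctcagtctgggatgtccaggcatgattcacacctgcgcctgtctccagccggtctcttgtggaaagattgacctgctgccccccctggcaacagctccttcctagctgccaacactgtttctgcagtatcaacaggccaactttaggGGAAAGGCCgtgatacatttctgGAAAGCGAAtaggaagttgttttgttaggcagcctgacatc
Sele: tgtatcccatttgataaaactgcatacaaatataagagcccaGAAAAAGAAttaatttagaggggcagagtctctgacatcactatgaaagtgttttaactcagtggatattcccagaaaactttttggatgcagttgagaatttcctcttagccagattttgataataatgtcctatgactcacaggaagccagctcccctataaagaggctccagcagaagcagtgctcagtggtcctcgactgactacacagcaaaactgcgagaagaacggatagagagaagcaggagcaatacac
In Selp the NF-kB type letters GGAAAGGCC begin 14 bases before the start base and the interferon type letters GAAAGCGAA begin 9 bases after it. In Sele the interferon type letters GAAAAAGAA begin 208 bases before the start, and no match to GGNNTTTCC was found in this window. All of these matches read as the motif on the other strand. Sites of NF-kB factors with other letters were not searched, so Sele may hold such a site. The third gene, Cd34, a sialomucin of endothelial surfaces, was 119-fold higher in members and matched neither pattern. Of 32851 promoter windows of this length, 5.82% held the NF-kB type motif and 8.56% the interferon type.

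Among genes of the lists with a window, the NF-kB type motif was found in 8 of 21 NF-kB response genes, 6 of 13 chemokine and cytokine genes and 4 of 14 adhesion genes. The interferon type was found in 13 of 24 type I interferon response genes. Among all 27025 genes with a window the shares were 6.62% and 9.76%. Junction genes held 1 and 0 matches among 15, and barrier transporters 1 and 3 among 17. The matches describe letters and no binding was measured.

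Members with and without pericyte genes differed in what they expressed. The division was made after the pericyte genes had been seen, and it goes with depth. In control members, 10.5% of 8186 genes measured were at least 2-fold higher with 3 to 8 pericyte genes and 4.75% at least 2-fold lower. In knockout members, the shares were 11.7% and 2.93% of 8303 genes. Of 7799 genes measured in both libraries, 201 were higher with pericyte genes in both and 15 lower in both. The overlap that unrelated calls would give was not worked out, so neither count is taken as a shared difference.

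Among the 20 genes with the largest folds in both libraries were channels and receptors of contractile cells and matrix genes. Cacna1c, an L-type calcium channel subunit, had 189 and 154 CPM with them and 0 UMIs without, at least 17.7-fold and 18.0-fold higher against a floor of 3 counts summed over the cells without. The endothelin receptor Ednra was at least 9.99-fold and 19.4-fold higher, and the cytokine Il11 at least 6.91-fold and 10.8-fold. The matrix proteoglycan Dcn had 176 against 3.56 CPM and 171 against 2.86 CPM. These genes were chosen for naming after their values were seen.

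Chemokines divided between the 2 kinds of member. Ccl2 was found almost only with pericyte genes: 1281 against 17.8 CPM in control and 1358 against 34.3 CPM in knockout members. It was detected in 14 of 22 and 25 of 26 members with pericyte genes and in 3 of 20 and 4 of 17 without. Il6 had 190 against 46.3 CPM in control and 417 against 82.8 CPM in knockout, and Cxcl10, an interferon-driven chemokine, 183 against 35.6 and 279 against 22.9 CPM. Of the chemokine and cytokine list, 9 of 18 measured genes were at least 2-fold higher with pericyte genes in control and 10 of 20 in knockout, with 3 and 4 lower. Over all genes, 10.5% and 11.7% were higher with pericyte genes and 4.75% and 2.93% lower.

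Csf3 went the other way. It had 2324 CPM in control members with 0 to 2 pericyte genes against 538 CPM in those with 3 to 8, and 3160 against 711 CPM in knockout. In the knockout class with 0 to 2, 1 cell held 621 of 1106 UMIs, and the medians per cell were 371 against 36.7 CPM in control and 473 against 412 CPM in knockout. Without the cell with the most Csf3 UMIs in each class, the sums were 1806 against 273 CPM and 1684 against 627 CPM. Lcn2 had 10852 against 2221 CPM and 7776 against 3962 CPM, but its medians per cell were close, at 2397 against 2090 CPM and 2963 against 2786 CPM. A single cell held 1157 of 3045 control and 1312 of 2722 knockout Lcn2 UMIs of the class with 0 to 2, and without the top cell of each class Lcn2 had 7838 against 2042 CPM and 4896 against 3487 CPM. The atypical chemokine receptor Ackr1, a marker of venules, had 991 against 97.8 CPM and 720 against 120 CPM, and Selp 239 against 54.2 and 363 against 3.50 CPM. These 2 genes lay in few cells: without the top cell of each class Ackr1 had 392 against 54.8 and 477 against 43.5 CPM, and Selp 18.5 against 6.74 and 166 against 0.763 CPM. The metallothionein Mt2 had 916 against 171 and 1197 against 346 CPM. Mt2 and Lcn2 are abundant in Müller-marker cells (5233 and 9650 CPM of Mt2), and rod genes were also higher in members without pericyte genes, at 1012 against 333 CPM in control and 103 against 57.4 CPM in knockout. Their part in these 2 genes was not tested.

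Most genes of the endothelial barrier stayed within 2-fold across this division. Slc2a1, the glucose transporter, had 1115 CPM without and 1232 CPM with pericyte genes in control members, and 1103 and 1111 CPM in knockout. Slco1c1 was lower without them, at 67.7 against 135 CPM in control and 22.9 against 44.1 CPM in knockout. Slc16a1 was higher without them, at 192 against 140 CPM and 131 against 77.0 CPM. The barrier transporter list had 1 higher and 1 lower gene of 24 in control and 2 higher and 0 lower of 23 in knockout. The junction list had 1 higher and 1 lower gene of 20 in control and of 22 in knockout. The type I interferon list had 6 higher and 1 lower of 30 measured genes in control and 18 higher and 0 lower of 31 in knockout. The shares over all genes were 10.5% higher and 4.75% lower in control, and 11.7% and 2.93% in knockout.

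**Figure D3:**
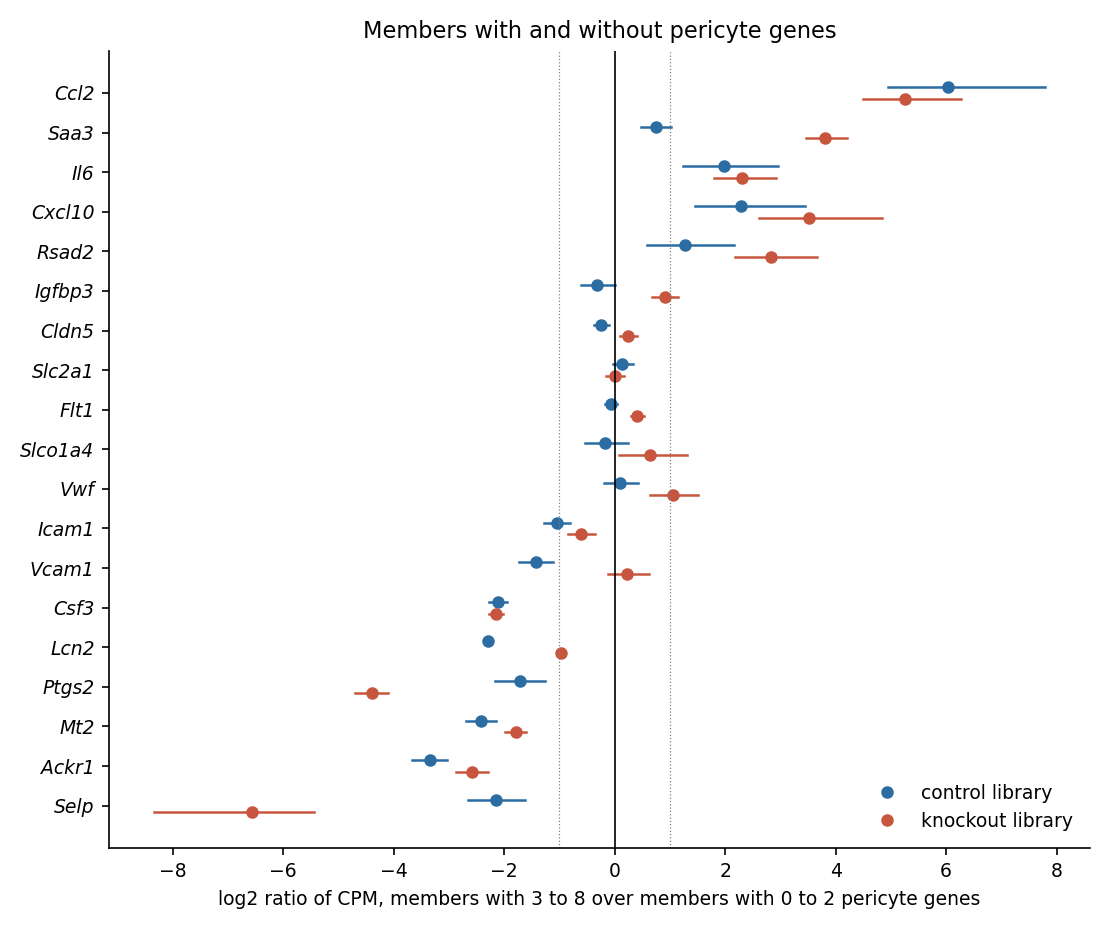
Log2 ratio of CPM in members with 3 to 8 over members with 0 to 2 pericyte genes, for genes described in the text, with exact 95% counting intervals, for the control and knockout library. Dotted lines mark 2-fold. Ccl2 is far to the right in both libraries, Cldn5, Slc2a1 and Flt1 lie near 0, and Csf3, Ackr1 and Selp lie to the left.

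Ackr1 and Selp, genes of venules, were detected in a minority of members. Ackr1 was detected in 12 control members, with a highest cell of 16489 CPM and 172 of 397 UMIs in 1 cell, and in 19 knockout members, with a highest cell of 4702 CPM. Neuron-marker cells also held Ackr1 in 52.9% and 56.6% of cells at 67.1 and 88.3 CPM, so a low count of it in a member is no mark of a venule. At least 10 Ackr1 UMIs were found in 5 of 20 and 5 of 17 members with 0 to 2 pericyte genes, and in 4 of 22 and 3 of 26 with 3 to 8. Of the members with Selp, 4 of 4 control and 6 of 7 knockout cells also held Ackr1. The arterial genes Gja5 and Gkn3 had no UMI in any member, but other genes of the arterial list were detected. Sema3g was found in 21 control and 22 knockout members, and Edn1 in 32 and 40. The von Willebrand factor gene Vwf was broad, in 37 of 42 and 41 of 43 members.

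The targeted gene, Atg5, was at 25.4 CPM in control and 25.3 CPM in knockout members (ratio 0.995, 0.633 to 1.58). The 3′ tags need not fall in the deleted part and Cre activity in the members was not measured, so this checks neither label. Of 36 autophagy genes measured, 0 were past 2-fold in either direction and the median log2 ratio was −0.11, against −0.06 over all genes.

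Most endothelial programmes differed little between the libraries. Of 22 junction genes, 28 endothelial transcription factors, 24 genes of VEGF and angiopoietin signalling and 19 of Norrin and Wnt signalling, 0 were past 2-fold in either direction. Their median log2 ratios (knockout over control) were 0.14, −0.06, −0.10 and −0.17. Cytokine receptors (23 genes, median −0.07), NF-kB response genes (27, 0.10), coagulation genes (15, 0.06), immediate early and dissociation genes (29, 0.08) and growth arrest genes (20, 0.26) likewise had 0 genes past 2-fold. The immediate early and dissociation list was not level in every kind of member: with 0 to 2 pericyte genes, 25 of 27 had a ratio above 1 and 7 were at least 2-fold higher, with a median of 0.63, where 5.11% of all genes were higher. With 3 to 8 pericyte genes, none of 29 was at least 2-fold higher, 1 was at least 2-fold lower and the median was −0.08. Fos, an early gene that tissue dissociation also induces, stood at 3575 and 3119 CPM, and the inhibitor of NF-kB, Nfkbia, at 1468 and 1455 CPM. Of the cell cycle list 9 genes were measured and none was past 2-fold. These counts stand beside a background of 167 higher and 424 lower genes of 9891.

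Blood-retina barrier transporters were lower in knockout members. Of 24 measured, 21 had a ratio below 1, 5 were at least 2-fold lower and 0 at least 2-fold higher, with a median log2 ratio of −0.47. Over all genes, 4.29% were at least 2-fold lower and 1.69% at least 2-fold higher. The list summed to 5746 CPM in control and 3956 CPM in knockout members. Slc38a5, a glutamine transporter, had 28.0 and 6.75 CPM (ratio 0.248, 0.115 to 0.465), although 22 of its 42 control UMIs lay in 1 cell. Slco1c1, which carries thyroid hormone, had 122 and 39.9 CPM (0.328, 0.245 to 0.432). Pltp, a phospholipid transfer protein, had 250 and 103 CPM, Bsg, the partner of lactate transporters, 1356 and 540 CPM, and Slco1a4, a gene of the rule, 228 and 114 CPM.

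Other carriers moved less. Slc2a1 had 1210 and 1110 CPM (0.917, 0.860 to 0.978), the drug efflux pump Abcb1a 352 and 248 CPM, Abcg2 262 and 195 CPM, and the lipid transporter Mfsd2a 57.4 and 38.2 CPM. Genes outside the list, named by rank of ratio, were lower too: Spock2 at 289 and 77.0 CPM (0.267, 0.218 to 0.324) and Sparcl1 at 306 and 98.9 CPM (0.323, 0.270 to 0.385). Slco1c1 lies at chr6:141524368-141570177 on the plus strand and Slco1a4 at chr6:141805440-141856199 on the minus strand.

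A large part of the difference in summed barrier genes lay with a few control cells. Per cell, the barrier list ranged from 1645 to 17145 CPM in control members (median 4432) and from 2175 to 6370 CPM in knockout members (median 3878). The medians were close, and 11 control cells lay above the highest knockout cell, 6 with 3 to 8 pericyte genes and 5 with 0 to 2. Among members with all 8 pericyte genes, 7 control cells and 1 knockout cell had Lcn2 under 200 CPM, and 7 and 17 had more. In the 7 control cells with low Lcn2, the barrier list summed to 13079 CPM, against 4353 CPM in the other 7. Bsg had 4692 against 718 CPM, Slco1a4 710 against 103, Slco1c1 427 against 64.5 and Spock2 1098 against 107 CPM. Of the 7 control cells with low Lcn2, 1 had a barrier sum of only 2470 CPM. The 1 knockout cell with low Lcn2 had 4694 CPM.

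The same 7 cells held 1308 of the 2032 control UMIs of Bsg. Several inflammatory genes were lower in them: Vcam1 had 43.0 against 195 CPM, Saa3 194 against 1262 CPM and Csf3 3.59 against 239 CPM. All 54 Saa3 UMIs of the 7 cells lay in 1 cell. Icam1 summed to 265 and 260 CPM, but 1 of the 7 cells held 62 of their 74 Icam1 UMIs. Leaving out the 7 control cells and the 1 knockout cell, a choice made after the data were seen, the barrier list had a median log2 ratio of −0.06 with 0 genes past 2-fold in either direction. Log2 ratios were then −0.13 for Bsg, −0.07 for Slco1a4, −0.49 for Slco1c1, −0.44 for Spock2 and −0.57 for Sparcl1. Lcn2 belongs to the acute response list, and mostly control cells were left out, so part of this change follows from the choice of cells. Members with 0 to 2 pericyte genes, which include none of these cells, had a median of −0.38, with 3 of 20 genes at least 2-fold lower and 0 higher. Over all genes in those members, 6.66% were lower and 5.11% higher. Pericyte genes were also higher in the 7 cells, at 8136 against 3347 CPM, as were erythroid genes, at 7196 against 6.79 CPM, mostly from 1 cell.

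Barrier and acute response genes were opposed within the control library. Across the 42 control members, Spearman's rho between the summed barrier genes and the summed acute response genes without Ctla2a was −0.61. It was −0.56 among the 22 members with 3 to 8 pericyte genes and −0.65 among the 20 with 0 to 2. In the 43 knockout members it was −0.06. These are descriptions over cells that share a library and its free RNA. Pericyte genes moved with both: among the 22 control members with 3 to 8 of them, rho was −0.81 between summed pericyte and acute response genes and 0.66 between pericyte and barrier genes, and among the 26 such knockout members 0.04 and −0.32. Their part in the pattern was not tested. The barrier sum and the UMI total had a rho of −0.01 in control and 0.09 in knockout members.

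**Figure D4:**
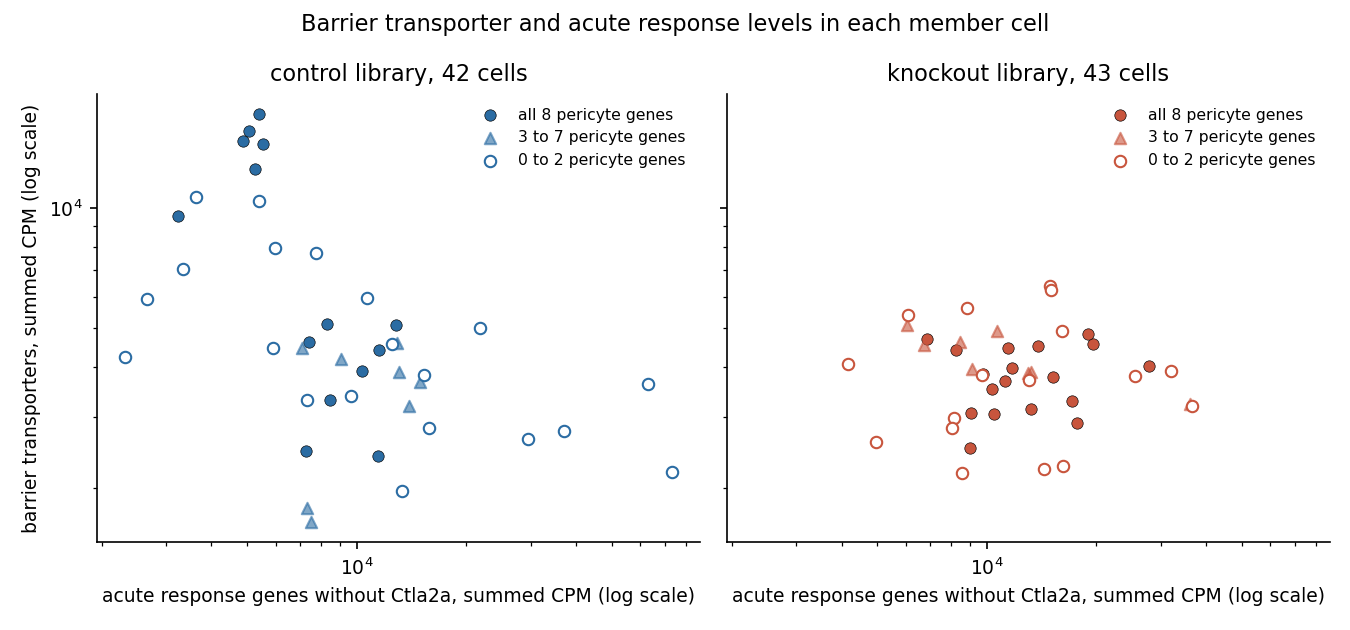
Each point is 1 member barcode, with the summed CPM of the acute response list without Ctla2a on the horizontal axis and of the barrier transporter list on the vertical axis (log scales), by library and number of pericyte genes. Control cells reach 17145 CPM of barrier genes at the left, and no knockout cell is above 6370 CPM.

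Type I interferon response genes were slightly higher in knockout members. Of 31 measured, 30 had a ratio above 1, with a median log2 ratio of 0.48. At least 2-fold higher were 2 and lower 0, beside 1.69% and 4.29% of all genes. The list summed to 10208 and 12465 CPM. Ifitm3, which blocks viral entry, made up most of the sum at 5984 and 7020 CPM. The antiviral enzyme Rsad2 had 126 and 295 CPM (ratio 2.34, 1.98 to 2.78), and Oasl1 had 22.7 and 90.5 CPM (3.94, 2.74 to 5.96). A single knockout cell held 248 of 525 Rsad2 UMIs and 71 of 161 Oasl1 UMIs, and without it the list median was 0.40. Averaging CPM over cells instead of summing UMIs gave a list median of 0.21. Per cell, the list had a median of 8983 CPM in control and 11859 CPM in knockout members, over ranges that overlapped almost wholly (3467 to 19589 and 3254 to 21164 CPM).

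The interferon difference was found in members with pericyte genes. With 3 to 8 pericyte genes, 31 of 31 measured genes had a ratio above 1 and the median log2 ratio was 0.58. With 0 to 2 pericyte genes, 8 of 25 were above 1, 0 were at least 2-fold higher and 5 at least 2-fold lower, with a median of −0.12. The backgrounds were 5.11% higher and 6.66% lower over 5092 genes in members with 0 to 2 pericyte genes, and 1.72% higher and 3.81% lower over 9407 genes in members with 3 to 8. The difference between the 2 kinds of member was not tested. Antigen presentation genes showed no common shift past the fold: of 37 measured, 2 were higher and 3 lower, and B2m had 1726 and 1829 CPM. The shares of all genes over all members were 1.69% higher and 4.29% lower.

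Acute response genes were mostly slightly higher in knockout members. Of 26 measured, 22 had a ratio above 1, with a median log2 ratio of 0.18 against −0.06 over all genes. At least 2-fold higher were 3 (11.5%, beside 1.69% of all genes) and at least 2-fold lower 1 (3.85%, beside 4.29%). Saa3, a serum amyloid A protein, had 720 and 2048 CPM (ratio 2.84, 2.66 to 3.05) and was detected in 22 control and 34 knockout members. Its median per cell was 16.4 CPM in control and 457 CPM in knockout, with top cells of 204 and 715 UMIs. In members with 3 to 8 pericyte genes it had 780 and 2507 CPM. In those with 0 to 2 it had 463 and 177 CPM, but 110 of the 130 control UMIs lay in 1 cell, and without the top cell of each library the levels were 74.0 and 79.9 CPM. Monocyte and macrophage-marker cells had 11582 and 8092 CPM of Saa3.

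Ptgs2, the inducible prostaglandin synthase, had 115 and 381 CPM, with 446 of 678 knockout UMIs in a single cell, and in members with 3 to 8 pericyte genes it had 80.5 and 77.0 CPM. Lrg1, a glycoprotein of inflamed vessels, was lower at 194 and 89.4 CPM (0.462, 0.378 to 0.562). Lcn2 had a ratio of 1.23 (1.19 to 1.27), at 0.717 in members with 0 to 2 pericyte genes and 1.78 in those with 3 to 8. The medians per cell of the class with 0 to 2 had the opposite order, at 2397 CPM in control and 2963 CPM in knockout.

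Chemokine and cytokine genes went both ways, with 3 of 21 at least 2-fold higher and 4 at least 2-fold lower. Over all genes the shares were 1.69% and 4.29%. Il6 had 163 and 351 CPM, and was detected in 17 control and 26 knockout members. Tnf was higher but scarce, at 5.34 and 18.6 CPM. Lower were Cxcl12, a homing chemokine of capillary endothelium, at 309 and 146 CPM (0.471, 0.403 to 0.550), and the neutrophil chemokine Cxcl5 at 236 and 63.0 CPM. For Cxcl5, 131 of 354 control and 64 of 112 knockout UMIs lay in 1 cell each. Without the 8 cells with low Lcn2, the log2 ratio of Cxcl12 was −0.78.

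**Figure D5:**
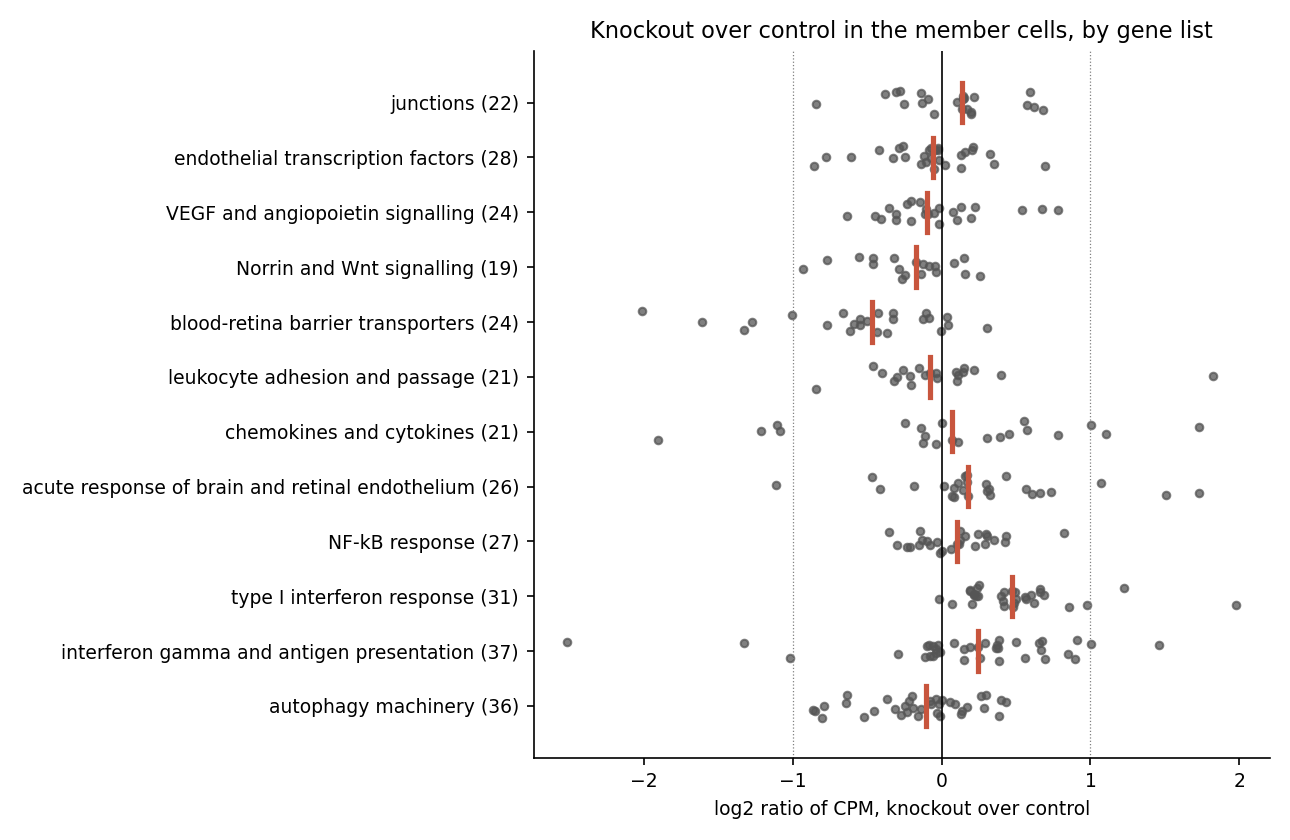
Log2 ratio of knockout over control CPM for each measured gene (points) of 12 lists, with the list median as a bar. The barrier transporter list has a median of −0.47, the type I interferon list of 0.48, and junction genes centre near 0 with a median of 0.14.

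Further genes were named by the rank of their ratio. Higher in knockout members were Enpp2, the enzyme autotaxin, at 5.34 and 29.2 CPM (ratio 5.20, 2.58 to 13.3), Igfbp3, a binding protein of insulin-like growth factors, at 354 and 837 CPM (2.36, 2.14 to 2.61), and the secreted hormone Stc1 at 72.8 and 170 CPM (2.33, 1.87 to 2.94). Igfbp3 was detected in 30 control and 37 knockout members, with medians of 262 and 491 CPM per cell, and it was under 112 CPM in every other group of cells. In members with 0 to 2 pericyte genes it had 421 and 491 CPM, and in those with 3 to 8 339 and 922 CPM.

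Lower were Myl9, a myosin light chain of contractile cells, at 64.1 and 10.1 CPM (0.161, 0.0898 to 0.263), Casq2 at 32.7 and 8.43 CPM, and Col8a1, a short-chain collagen, at 26.7 and 5.06 CPM with 24 of 40 control UMIs in 1 cell. The smooth muscle list moved with them, at 36.7 and 13.5 CPM, and its part was not tested. Plvap, which forms the diaphragms of leaky vessels, had 32.7 and 5.62 CPM, and 42 of 49 control UMIs lay in 1 cell.

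Vessel identity and matrix lists had 0 to 3 genes past 2-fold in each direction, beside 1.69% of all genes higher and 4.29% lower. Arterial genes had 0 higher and 1 lower of 16 (Alpl), capillary genes 0 and 2 of 10 (20%, Cxcl12 and Spock2), venous genes 0 and 2 of 12 (16.7%), tip cell genes 1 and 0 of 14 (Igfbp3) and caveolar genes 0 and 1 of 11 (Plvap). Basement membrane and matrix genes had 0 higher and 3 lower of 31, Notch and BMP genes 0 and 1 of 22 (Notch2), vascular tone genes 1 and 1 of 20 and LPS sensing genes 1 and 1 of 15. Complement genes had 2 higher (18.2%) and 1 lower of 11, with C3, the central complement component, at 3.34 and 15.7 CPM. Metallothionein and oxidative defence genes had 2 higher and 1 lower of 23, with Hmox1, the haem-degrading enzyme, at 8.68 and 28.7 CPM, and 25 of its 51 knockout UMIs in 1 cell. Some of these lists differed by kind of member. With 0 to 2 pericyte genes, tip cell genes had 4 higher and 0 lower of 13, and venous genes 0 and 4 of 11. The shares over all genes in these cells were 5.11% higher and 6.66% lower. With 3 to 8, tip cell genes had 1 and 1 of 14 and venous genes 0 and 2 of 12.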

How the data were processed

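Per the labels' protocols, papain-dissociated retinal cells were run on the 10x Genomics 3′ platform. The deposited matrices hold raw UMI counts per gene and barcode, made with Cell Ranger 6.0.0 on mm10 and analysed in Seurat 5.2.1 per the submitters' processing notes. The annotation release is not given in the sources used here. Barcodes with at least 500 genes and under 25% mitochondrial UMIs were kept, the filter of the series' design text, which left 8274 of 8690 control and 4662 of 5229 knockout barcodes. Members and gene lists were chosen with earlier results of these data known. The groups of other cells, with "-marker" in their names, were defined by marker counts, and the neuron-marker group, the division by pericyte genes and the Lcn2 bound were chosen after values were seen.

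UMIs were summed per library and cell group and given as CPM with exact Poisson intervals. Ratios are knockout over control with 0.5 added to both counts and exact conditional binomial intervals, over genes with at least 20 UMIs. A gene counted as past 2-fold from its ratio alone. No test was run and no p-value is given, since each group is 1 library. The script was tested on simulated Poisson counts of the library sums. These hold no spread between cells, so they do not check the intervals of genes carried by few cells. Named genes were the 12 largest and 12 smallest ratios among genes with at least 40 UMIs in at least 5 cells, no cell with most of the UMIs, at least 2 times the CPM of other deep cells and an interval leaving out 1, the extremes and 3 highest levels of each list, and a fixed set. Of the 29 gene lists and 19 marker lists, those with values are named. Alternatives comprised 15 planned and 4 added settings, chosen after seeing the data. Python 3.11.15, numpy 2.4.6, scipy 1.17.1, pandas 2.3.3 and, for TMM factors, edgeR 4.0.16 were used. Gene positions are from GENCODE annotation of mm10 and promoters from RefSeq on GRCm38.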

Additional observations from a re-analysis of the deposited data

How the results depend on the processing

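No paired analysis was possible because each group was 1 library without replicate numbers. Across the 18 alternatives the counts of genes past 2-fold, 167 higher and 424 lower, moved most with the minimum: 51 and 157 at 50 UMIs, 2100 and 2566 with no minimum, 55 and 76 with cells thinned to 2000 UMIs, and 450 and 858 with the mean of per-cell CPM. Without members with 3 or more pericyte genes 260 were higher. The higher share of these calls, 28.3%, became 43.4% without those members, 42.0% when thinned, 45.0% with no minimum and 39.5% without the cells with low Lcn2. TMM scaling gave 191 and 382, and thinning moved the median of all genes by 0.10. With no UMI minimum, which adds shallow cells to the denominator, the endothelial share was 0.532% in control and 0.965% in knockout, so the order of the libraries turned.

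Without members with 3 or more pericyte genes, log2 ratios had the other sign for Saa3 (−1.38, or 0.10 when the cell with the most Saa3 UMIs of each library was left out too), Rsad2 (−0.23), Sparcl1 (0.11), Bsg (0.33) and the median of the type I interferon list (−0.12). With only those members Ptgs2 was at −0.065, with the mean of per-cell CPM C3 was at −0.10, and without the cells with low Lcn2 the median of the capillary list was 0.049. The cause was not tested. With Müller genes under 0.05% of UMIs, which left 32 control and 38 knockout members, Slco1a4 was at −0.47, Slc38a5 at −0.24, Bsg at −0.90 and the barrier list median at −0.24. Without the tenth of cells with the most UMIs, the barrier median was −0.72. Depth limits genes near 2.00 CPM in control and 1.69 CPM in knockout members, where 0 counts cannot be told from a low level.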

Other observations

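Some endothelial genes not named above were high and level between the libraries. The secreted matrix protein Sparc had 2437 and 2443 CPM, the basement membrane collagen Col4a1 1463 and 1663 CPM and the shear-responsive factor Klf2 2020 and 2215 CPM in control and knockout members. The vasoconstrictor peptide gene Edn1 had 597 and 632 CPM and its converting enzyme Ece1 622 and 664 CPM. The endothelial growth factor for pericytes, Pdgfb, had 432 and 477 CPM and was detected in 40 members of each library. The angiogenic peptide Adm was lower in knockout members at 398 and 250 CPM, with 249 of 597 control and 123 of 444 knockout UMIs in 1 cell each.

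Glycolysis genes had different directions by number of pericyte genes. With 0 to 2 pericyte genes, 5 of 17 measured were at least 2-fold higher and 0 lower in knockout members, with a median log2 ratio of 0.81, beside 5.11% of all genes that were higher. Immediate early and dissociation genes moved with them in these cells (7 of 27 at least 2-fold higher, median 0.63), and their part was not tested. With 3 to 8, 0 of 18 were past 2-fold and the median was −0.14. The difference between the 2 kinds of member was not tested.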
